A study of Homo sapiens with 5 samples.

Results

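The genes described here encode the Polycomb and histone H3 lysine 9 (H3K9) silencing machinery, the proteins that write, read and hold the main repressive histone marks of human chromatin. They are 40 genes taken by symbol from the deposited gene table, and all 40 were found among its 33857 listed genes. All 40 also passed the filter on low values, 10 normalized counts or more in 2 or more samples, which left 19232 tested genes in the whole table. The rule names genes by symbol and uses no measured value, though the genes were chosen with earlier results of these data known.

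The samples were 5 poly(A+) RNA-seq libraries of H9, a human embryonic stem cell (hESC) line, grown in mTeSR medium. The study's methods describe puromycin selection of the gene-edited cultures before clones were picked. The mock control group held 2 clones transfected with an empty CRISPR/Cas9 vector. The CFIm25-m group held 3 single-cell clones, 1 from each of 3 guide RNAs aimed near the start codon of CFIm25, the gene also known as NUDT21, whose product is a subunit of cleavage factor Im in mRNA 3' end processing. The sample labels call these clones KO, while the series design calls them KD. The study's results describe knockdown with a small N-terminal deletion, so these clones model reduced and shortened CFIm25 and not its absence. All 5 went through transfection and clonal picking, and each library is 1 clone, so a clone's own history cannot be told apart from the editing within it.

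In background terms, Polycomb proteins form 2 families of complexes. Polycomb repressive complex 2 (PRC2) methylates H3K27, and PRC1 ubiquitinates histone H2A and compacts chromatin. In embryonic stem cells both sit on the promoters of developmental regulators, which they keep silent but ready for use. H3K9 methylation is laid down by separate enzymes, read by heterochromatin protein 1 (HP1), and brought to transposons and imprinted regions by KRAB zinc finger proteins through TRIM28, and by the human silencing hub (HUSH).

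The edited gene was lower in all CFIm25-m clones. The mock controls had 6503 and 6398 normalized counts, and the clones 4035, 3281 and 3400 (CFIm25-m replicates 1, 2 and 3, the order used throughout). The log2 fold change was -0.86 ± 0.11 (SE), with an adjusted p of 0.00431 in limma-trend. That adjusted p was 0.0618 without mock control replicate 1 and 0.0557 without replicate 2. Library totals, rebuilt as whole reads, ran from 18754108 to 22466365 in the mock controls and from 20742606 to 23372391 in CFIm25-m. CFIm25-m replicate 3 stood apart, with 6.76% of its reads from mitochondrial genes against 3.998% to 4.374% in the other 4 libraries, and 0.754% from antisense, sense-intronic and unclassified transcripts against 0.537% to 0.574%. All 10 hESC marker genes examined were tested and none passed, with a summed normalized count of 233817 to 237938 in the mock controls and 211014 to 219366 in CFIm25-m. Among markers of other cell types, MAP2 was called higher and DCX lower in the neural list (6 of 8 tested, summed counts 12975 to 13673 and 10917 to 13670). No marker of the fibroblast (4 of 8 tested), endoderm (3 of 7), mesoderm (4 of 7) or trophectoderm list (2 of 7) passed. The endoderm sum was 36.7 to 53.0 in the mock controls and 57.6 to 87.2 in CFIm25-m, and the part of any of these cells in the silencing gene values was not tested. In bulk RNA, fewer cells of a type and less RNA per cell cannot be told apart.

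Across the silencing machinery, 1 of the 40 genes passed the test. JARID2 was lower, and no gene was higher, at an adjusted p under 0.05 in limma-trend. Over all tested genes 0.936% were called lower and 0.941% higher, 1.88% in either direction. The unadjusted p was under 0.05 for 6 of the 40 genes, or 15% (JARID2, BMI1, KDM2B, RYBP and ATF7IP with lower values, CBX6 with higher), against 15.1% of all tested genes, so this share lay at the background.

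The individual changes were small. The median absolute log2 fold change of the 40 genes was 0.13, against 0.17 over all tested genes and 0.15 over tested protein-coding genes. For 34 of the 40 genes the 95% confidence interval lay within a 1.5-fold change in either direction. This held for 50.5% of all tested genes and 62.8% of tested protein-coding genes. For 39 it lay within 2-fold, as it did for 14018 of the 19232 tested genes and 12367 of the 14801 protein-coding ones. The exception was the barely detected YAF2. The estimates leaned downward, with 26 of 40 below 0 (65%, against 51.8% of all tested genes and 56.1% of tested protein-coding genes). Their median was -0.07, against -0.01 over all tested genes and -0.03 over protein-coding ones. With edgeR, DESeq2 and TMM scaling 24 of the 40 were below 0. The medians were then -0.05, -0.06 and -0.06, against 0.02, 0.01 and 0.003 over all tested genes. The 2 groups did not overlap for 17 genes (42.5%), 13 lower and 4 higher in CFIm25-m. This share was 36.8% of all tested genes and 38.6% of tested protein-coding genes.

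**Figure D1:**
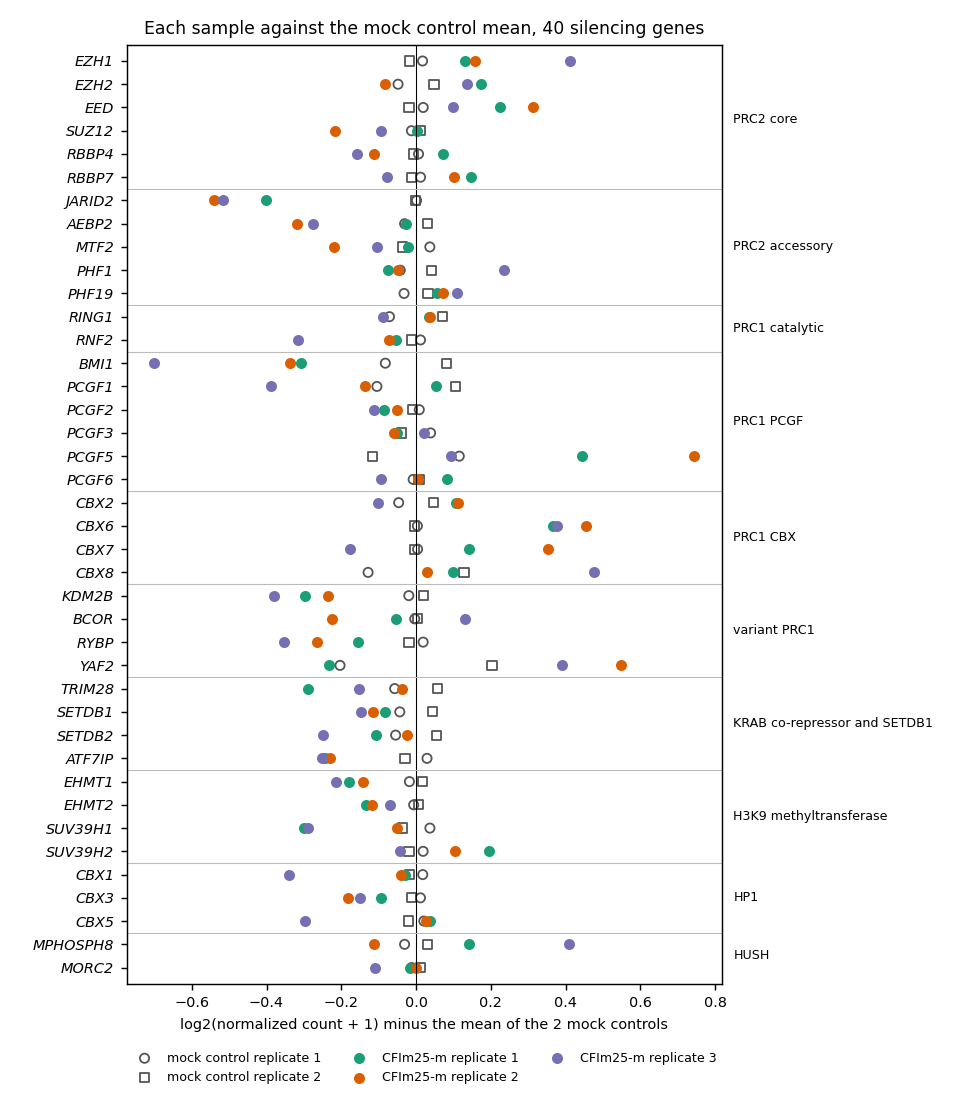
Each point is 1 library, placed on the horizontal axis by its log2(normalized count + 1) minus the mean of the 2 mock controls, for each of the 40 genes on the vertical axis, grouped by role. JARID2, CBX6, KDM2B and ATF7IP show 3 CFIm25-m clones close together and clear of both mock controls, whereas in BMI1, CBX1, CBX5 and CBX8 replicate 3 lies away from the other 2 clones.

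**Figure D2:**
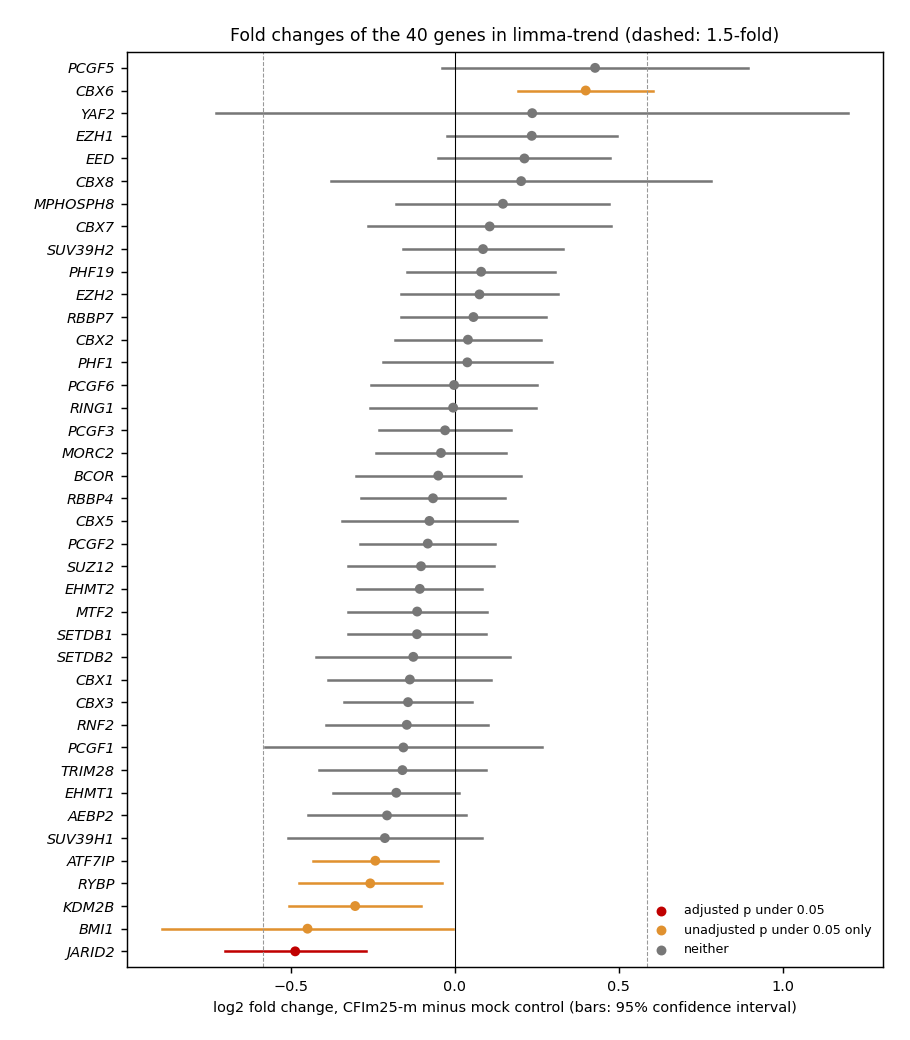
Points are log2 fold changes of CFIm25-m against mock control in limma-trend and bars their 95% confidence intervals, with genes in order of fold change on the vertical axis and dashed lines at 1.5-fold. JARID2 is the only gene coloured as past the adjusted threshold, and 34 of the 40 intervals lie between the dashed lines.

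The PRC2 core consists of a methyltransferase (EZH2 or EZH1), the scaffold SUZ12, the H3K27me3-binding subunit EED and the histone-binding proteins RBBP4 and RBBP7. None of the 6 core genes passed the test. EZH2, the main methyltransferase of dividing cells, was at 1346 and 1439 normalized counts in the mock libraries and at 1571, 1313 and 1529 in the clones. These overlapped, and the log2 fold change was 0.08 ± 0.11 (SE), adjusted p = 0.775 in limma-trend. EZH1, its less active relative, was at 695 and 678 in the mock libraries and at 753, 766 and 915 in the clones. All 3 CFIm25-m clones were above both mock controls, with replicate 3 highest, but the log2 fold change of 0.23 ± 0.12 did not pass (adjusted p = 0.379). Per kilobase of gene length, EZH2 made up 75.8% ± 1.18 (SD, n = 2) of the EZH level in the mock controls and 73.7% ± 2.32 (SD, n = 3) in CFIm25-m, ranges that overlapped.

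EED was at 431 and 420 normalized counts in the mock libraries against 497, 529 and 456 in the clones. The groups did not overlap, and the log2 fold change was 0.21 ± 0.12 (adjusted p = 0.428). SUZ12, RBBP4 and RBBP7 overlapped between groups, with log2 fold changes of -0.10, -0.07 and 0.06. RBBP7 shares its span with TXLNG on the other strand. The strand setting of the counting was not given in the sources used here, so reads of such gene pairs may be split between them.

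The accessory subunits steer PRC2 to its sites. JARID2, a Jumonji-family protein without demethylase activity that binds PRC2 and stimulates it, lies at chr6:15246296-15522040 on the plus strand (GRCh38). It was the most abundant of the 5 accessory genes, at 2233 normalized counts per kilobase in the mock controls, above 98.1% of the tested protein-coding genes. The mock controls had 13443 and 13418 normalized counts of JARID2, and the clones 10166, 9239 and 9387. Every CFIm25-m clone was below both mock controls, which differed by less than the spread among the clones (means 13430 ± 17.4, n = 2, and 9597 ± 498, n = 3, SD). JARID2 fell by 28.6%, a log2 fold change of -0.49 ± 0.10 (SE; 95% confidence interval -0.70 to -0.27), with an adjusted p of 0.0354 in limma-trend.

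The JARID2 call was lost in 4 of the 5 analyses that left out 1 library. The adjusted p was 0.498 without mock control replicate 1, 0.480 without mock control replicate 2, 0.0794 without CFIm25-m replicate 1, 0.0844 without CFIm25-m replicate 2 and 0.00170 without CFIm25-m replicate 3. The log2 fold change stayed between -0.53 and -0.46 in all 14 alternative analyses, and 9 of them kept the call. In edgeR on the rebuilt reads the adjusted p was 0.0375 and in DESeq2 0.000148. These tools called 1.81% and 3.27% of all tested genes, and each called 2 of the 40 genes, JARID2 lower and CBX6 higher. The antisense gene within its span, JARID2-AS1, had a mean normalized count of 7.22 in the mock controls and 8.36 in CFIm25-m.

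The windows of 250 bases upstream of RefSeq starts (GRCh38.p14) were examined for 37 of the 40 genes, 59 windows in all. CG dinucleotides numbered 25 at the median of these windows, against 11 over the 35116 windows of the RefSeq table, and 47 of the 59 were at or above the latter. At least 1 CG was present in 58 of the 59 windows and in 93.9% of all windows. The sequence TATAAA, on either strand, was present in 3 of the 59 windows, 1 of JARID2 and 2 of ATF7IP, and in 10.7% of all windows. A stretch of each of the 2 genes called by at least 1 tool is shown. JARID2 has 2 windows, and the stretch comes from the one that holds TATAAA and 22 CG, while the other, further into the gene, holds 34 CG and no TATAAA. The JARID2 stretch, chr6:15245933-15245962 on the plus strand, has TATAAA in capitals and ends 106 bases before the end of its window. The CBX6 stretch, chr22:38872403-38872432 on the minus strand, has each CG in capitals, in a window with 45 CG, more than 99.4% of all windows hold. Both are written 5' to 3' on the gene's strand.
JARID2: agccctaacttgTATAAAagcagagtccat
CBX6: ccagCGCGCGccccCGcccCGCGagCGcCG

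The other accessory genes did not pass. AEBP2, a zinc finger protein that joins the same form of PRC2 as JARID2, was at 2261 and 2359 normalized counts in the mock libraries and at 2267, 1852 and 1909 in the clones. CFIm25-m replicate 1 overlapped the mock controls, and the log2 fold change was -0.21 ± 0.11 (adjusted p = 0.403). The Polycomb-like proteins MTF2, PHF1 and PHF19, which bring PRC2 to CpG islands in a separate form of the complex, had log2 fold changes of -0.11, 0.04 and 0.08, with adjusted p from 0.600 to 0.906. PHF1 shares its span with CUTA on the other strand.

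The share of JARID2 in the accessory group was lower in every clone, a difference that was not tested. JARID2 accounted for 62.9% and 62.6% of the summed accessory level per kilobase in the mock libraries, against 56.6%, 56.7% and 54.7% in the clones. JARID2 nevertheless remained at 1596 normalized counts per kilobase in CFIm25-m, with MTF2, the next gene, at 499.

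PRC1 is built around a RING E3 ligase, RING1 or RNF2 (also called RING1B), that ubiquitinates H2A. Neither passed the test. RNF2 was at 1040 and 1023 normalized counts in the mock libraries and at 994, 981 and 829 in the clones. The groups did not overlap, and the log2 fold change was -0.15 ± 0.11 (adjusted p = 0.564). RING1 had 492 and 543 against 530, 530 and 487. Its log2 fold change was -0.01 ± 0.11, and turned to 0.01 with edgeR scaling. Per kilobase the 2 ligases were near parity, with RING1 at 52.9% ± 2.03 (SD, n = 2) of their sum in the mock controls and 55.3% ± 1.28 (SD, n = 3) in CFIm25-m. This parity depends on the deposited lengths, 1818 bases for RING1 and 4073 for RNF2.

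The 6 PCGF proteins pair with the RING ligase and set the kind of PRC1 formed. No PCGF gene passed the test. In the mock controls PCGF2 held 37.99% of the summed PCGF level per kilobase, PCGF3 28.6%, PCGF6 20.4%, PCGF1 7.15%, BMI1 3.93% and PCGF5 2.02%. PCGF3 had 1772 and 1679 normalized counts in the mock libraries against 1092 and 1079 for PCGF2, with lengths of 7425 and 3511 bases. PCGF2 and BMI1 are the alternatives used in canonical PRC1. In these cells the PCGF2 level per kilobase (309) was above that of BMI1 (31.97). The BMI1 level and share are uncertain, because a read-through gene on the same strand covers BMI1 and the counting of shared reads is unknown. The order was kept in CFIm25-m for the 4 upper genes, while BMI1 at 2.99% ± 0.360 and PCGF5 at 2.86% ± 0.585 (SD, n = 3) could no longer be ranked.

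BMI1 and PCGF5 had the largest fold changes of the family, in opposite directions. BMI1 was at 129 and 145 normalized counts in the mock libraries and at 110, 108 and 83.7 in the clones. All clones were below both mock controls, with replicate 3 lowest, and the log2 fold change of -0.45 ± 0.20 did not pass (adjusted p = 0.326 in limma-trend). GENCODE also annotates a read-through gene, COMMD3-BMI1, over BMI1 on the same strand, which was not analysed here, so how the counting treated their shared reads is unknown. PCGF5 was at 148 and 126 against 185, 229 and 145. Replicates 1 and 2 were above both mock controls and replicate 3 between them, and the log2 fold change was 0.43 ± 0.21 (adjusted p = 0.370). PCGF1, PCGF2, PCGF3 and PCGF6 had log2 fold changes between -0.16 and -0.002, and that of PCGF6 changed sign with edgeR, DESeq2 and TMM scaling. PCGF2 shares its span with CISD3 on the other strand.

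The Polycomb CBX proteins are the chromodomain subunits that read H3K27me3 for canonical PRC1. All 4 examined (CBX2, CBX6, CBX7 and CBX8) had estimates above 0 and none passed in limma-trend. CBX6 lies at chr22:38861450-38872314 on the minus strand (GRCh38). The mock controls had 1013 and 1008 normalized counts of CBX6, and the clones 1302, 1386 and 1313. The clones were close to each other and all above the mock controls (means 1011 ± 3.29, n = 2, and 1333 ± 45.4, n = 3, SD). The log2 fold change was 0.40 ± 0.09 (95% confidence interval 0.19 to 0.60), with an adjusted p of 0.0657 in limma-trend, 0.0492 in edgeR and 0.0156 in DESeq2. No other listed gene overlaps CBX6.

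CBX2 was the most abundant of the 4. It held 79.05% ± 0.670 (SD, n = 2) of the summed level per kilobase of CBX2, CBX6, CBX7 and CBX8 in the mock controls and 75.5% ± 1.19 (SD, n = 3) in CFIm25-m. The share of CBX6 went from 15.5% and 14.7% in the mock controls to 17.5%, 18.2% and 19.8% in the clones, without overlap, a difference that was not tested. CBX7, the CBX protein that mouse embryonic stem cells use most, was at 37.7 normalized counts per kilobase and CBX8 at 11.3 in the mock controls, against 660 for CBX2. CBX2, CBX7 and CBX8 overlapped between groups, with log2 fold changes of 0.04, 0.11 and 0.20 and adjusted p of 0.882, 0.799 and 0.751.

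**Figure D3:**
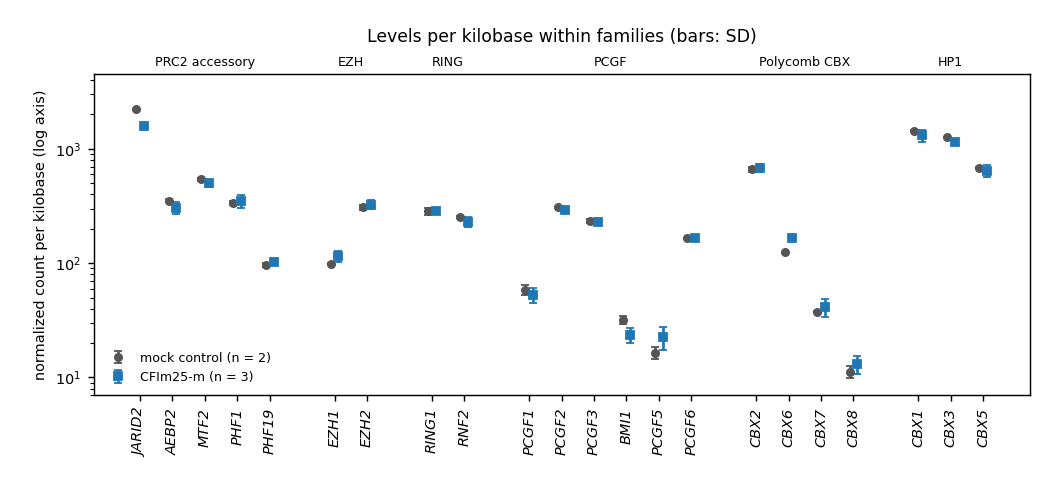
Normalized counts per kilobase of gene length (vertical log axis) for the PRC2 accessory, EZH, RING, PCGF, Polycomb CBX and HP1 genes, as group means with SD (mock control, n = 2, and CFIm25-m, n = 3). JARID2 and CBX2 lie highest and CBX8 lowest in their families in both groups, while BMI1 and PCGF5 lie close together in CFIm25-m.

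Variant PRC1 lacks a Polycomb CBX subunit and carries RYBP or its relative YAF2 instead, and 1 form adds KDM2B and BCOR. KDM2B, whose zinc finger binds unmethylated CpG and recruits PRC1 to CpG islands, lies at chr12:121429097-121581015 on the minus strand (GRCh38). It was at 4195 and 4309 normalized counts in the mock libraries and at 3462, 3614 and 3268 in the clones. All clones were below both mock controls, and the log2 fold change of -0.30 ± 0.09 had an adjusted p of 0.145 in limma-trend. KDM2B shares its span with RNF34 on the other strand, whose own log2 fold change was -0.16 with an adjusted p of 0.648. BCOR, the scaffold of this form, had 2035 and 2045 against 1964, 1744 and 2233, which overlapped, for a log2 fold change of -0.05.

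RYBP, which stimulates H2A ubiquitination, lies at chr3:72371825-72446621 on the minus strand (GRCh38). The mock controls had 1579 and 1538 normalized counts of RYBP, and the clones 1400, 1297 and 1220. The groups did not overlap, and the log2 fold change of -0.26 ± 0.10 had an adjusted p of 0.249. YAF2 was near the filter, at 9.22 and 12.6 normalized counts against 9.02, 16.2 and 14.4. Its log2 fold change of 0.24 ± 0.43 left a change of either sign possible, and RYBP made up 99.5% of the pair's level per kilobase in the mock controls.

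The KRAB pathway runs from TRIM28 (KAP1), the co-repressor that KRAB zinc finger proteins bind, to SETDB1, the enzyme it recruits to trimethylate H3K9, which ATF7IP stabilises. All 4 genes of this group had estimates below 0 and none passed. TRIM28 was the most abundant of all 40 genes, at 5221 normalized counts per kilobase in the mock controls, above 99.3% of the tested protein-coding genes. It was at 20226 and 21894 normalized counts in the mock libraries and at 17229, 20488 and 18947 in the clones. Replicate 2 fell between the mock controls, and the log2 fold change was -0.16 ± 0.11 (adjusted p = 0.542).

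SETDB1 was at 1094 and 1162 normalized counts in the mock libraries and at 1065, 1040 and 1018 in the clones. All clones were below, by little, and the log2 fold change was -0.12 ± 0.09 (adjusted p = 0.593). SETDB1 shares its span with CERS2 on the other strand. ATF7IP, at chr12:14365632-14502935 on the plus strand (GRCh38), was at 4635 and 4450 against 3835, 3872 and 3812. The 3 clones were nearly equal (SD 30.4) and below both mock controls, with a log2 fold change of -0.24 ± 0.09 and an adjusted p of 0.219 in limma-trend. SETDB2, a relative of SETDB1, overlapped between groups, with a log2 fold change of -0.13.

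The remaining H3K9 methyltransferases form 2 pairs. EHMT1 (GLP) and EHMT2 (G9a) act together in mono- and dimethylation of H3K9. EHMT1 was at 3816 and 3911 normalized counts in the mock libraries and at 3412, 3504 and 3330 in the clones. EHMT2 was at 3504 and 3535 against 3210, 3244 and 3354. Neither gene overlapped between groups, and neither passed (log2 fold changes -0.18 ± 0.09 and -0.11 ± 0.09, adjusted p = 0.364 and 0.586). EHMT2 held 73.5% ± 0.217 (SD, n = 2) of their level per kilobase in the mock controls and 74.5% ± 0.846 (SD, n = 3) in CFIm25-m. This share rests on the deposited lengths, 22217 bases for EHMT1 and 7289 for EHMT2. In normalized counts EHMT1 was the higher of the pair in the mock libraries.

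SUV39H1 and SUV39H2 trimethylate H3K9 in pericentromeric heterochromatin. SUV39H1 was at 394 and 374 normalized counts in the mock libraries and at 312, 371 and 315 in the clones. Replicate 2 came close to the lower mock control, and the log2 fold change was -0.21 ± 0.13 (adjusted p = 0.481). SUV39H2 was at 705 and 687 against 798, 748 and 676, which overlapped, and its log2 fold change was 0.09 ± 0.11 (adjusted p = 0.750). SUV39H2 made up 62.8% and 63.4% of the pair's level per kilobase in the mock libraries, against 70.7%, 65.6% and 67.0% in the clones, higher in every clone, though this share was not tested. SUV39H2 shares its span with DCLRE1C on the other strand.

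The HP1 proteins read H3K9 methylation. CBX1 (HP1 beta), CBX3 (HP1 gamma) and CBX5 (HP1 alpha) all had estimates below 0 and none passed. CBX3 was at 5892 and 5797 normalized counts in the mock libraries and at 5473, 5151 and 5264 in the clones, without overlap. CBX1 had 4477 and 4367 against 4330, 4297 and 3494, and CBX5 had 10302 and 10008 against 10426, 10341 and 8267. In CBX1 and CBX5 the lower mean came mostly from replicate 3. The log2 fold changes of CBX1, CBX3 and CBX5 were -0.14, -0.14 and -0.08, with adjusted p of 0.593, 0.477 and 0.797, and without replicate 3 that of CBX5 was 0.03. Per kilobase CBX1 held 42.5%, CBX3 37.4% and CBX5 20.1% of the HP1 level in the mock libraries, against 42.2%, 37.03% and 20.8% in the clones. CBX5 had the most normalized counts, at a deposited length of 15040 bases against 3087 for CBX1 and 4641 for CBX3. CBX3 shares its span with the abundant HNRNPA2B1 on the other strand, whose log2 fold change was -0.04.

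HUSH silences newly integrated and transposon-derived sequences. MPHOSPH8, its chromodomain subunit, was at 693 and 723 normalized counts in the mock libraries and at 781, 655 and 941 in the clones. The clones lay on both sides of the mock controls, and the log2 fold change was 0.15 ± 0.15 (adjusted p = 0.667). MORC2, an ATPase that works with HUSH, had 2356 and 2396 against 2348, 2376 and 2203. These overlapped, and the log2 fold change was -0.04 ± 0.09 (adjusted p = 0.856). The antisense gene MORC2-AS1 had means of 18.5 and 36.2 (adjusted p = 0.194).

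The 3 CFIm25-m clones were not equally far from the mock controls. The median absolute log2 difference of the 40 genes from the mock control mean was 0.11 in replicate 1, 0.12 in replicate 2 and 0.17 in replicate 3, while the 2 mock controls differed by 0.04. Over all tested genes the same medians were 0.18, 0.18, 0.29 and 0.10. JARID2 was the lowest and PCGF5 the highest gene in replicates 1 and 2, whereas in replicate 3 these were BMI1 and CBX8. Replicate 3 differed from both other clones in the same direction by more than 0.25 on the log2 scale in 10 genes, above them in EZH1, PHF1, CBX8 and MPHOSPH8 and below them in BMI1, PCGF1, PCGF5, CBX1, CBX5 and CBX7. Replicate 1 did so in 1 gene (YAF2), and replicate 2 in PCGF5, above the other clones, and in MPHOSPH8, below them. These counts were not made over all tested genes, so they are not read as a trait of the 40 genes. Replicate 3 was also the library with the higher mitochondrial and antisense shares, and the part of these in its silencing gene values was not tested.

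Without CFIm25-m replicate 3, 4 of the 40 genes passed in limma-trend, against 5.55% of the tested genes. JARID2 (-0.47), KDM2B (-0.27, adjusted p = 0.0289) and ATF7IP (-0.24, adjusted p = 0.0413) were then lower, and CBX6 (0.41, adjusted p = 0.0127) higher. The log2 fold changes of these 3 genes with all 5 libraries were -0.30, -0.24 and 0.40. Their standard errors were 0.06, 0.06 and 0.07 without replicate 3 and 0.09 in each case with it.

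The related lists were set beside all tested genes. Of those, 1.88% were called in limma-trend, 1.81% in edgeR and 3.27% in DESeq2. Estimates were below 0 for 51.8% of all tested genes and for 56.1% of tested protein-coding genes. Of 35 other Polycomb genes, 34 were tested, 23 had estimates below 0 (67.6%), and 0 were called lower and 1 higher. That gene was ASXL3, a cofactor of the H2A deubiquitinase BAP1, at 11.5 and 14.5 normalized counts in the mock libraries and at 35.1, 43.2 and 41.4 in the clones. The groups were well separated at this low level, and the log2 fold change was 1.55 ± 0.31 (adjusted p = 0.0386 in limma-trend). At an unadjusted p under 0.05 this list held 2 genes lower and 5 higher (20.6%, against 15.1% of all tested genes), and edgeR and DESeq2 called 1 and 3. Of 42 other H3K9 and heterochromatin genes, 41 were tested, 31 had estimates below 0 (75.6%), and 1 was called lower and 0 higher. The called gene was HDAC1, a histone deacetylase of several co-repressor complexes, at 4321 and 4472 against 3308, 3077 and 3038. All clones were below both mock controls, and the log2 fold change was -0.49 ± 0.09 (adjusted p = 0.0265 in limma-trend). At an unadjusted p under 0.05 this list held 6 genes lower and 0 higher (14.6%), and edgeR and DESeq2 each called 1. All tested genes held 1375 lower and 1536 higher at that limit. Without 1 library at a time, ASXL3 and HDAC1 lost their calls in 4 of 5 cases each, keeping them only without CFIm25-m replicate 3.

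Genes known from other work as targets of this machinery were examined as well, though some of them were expressed in these cells. Of 44 developmental regulators whose promoters carry both active and Polycomb marks in hESCs, 39 were listed and 14 passed the filter, and of these 0 passed the test in either direction. With 25 of the 39 below the filter in these cells, most could not be compared. The regulators included FOXD3, a transcription factor gene already expressed in hESCs, with a mean of 496 normalized counts in the mock controls. MSX2, a homeobox gene named after its values were seen, was at 19.6 and 18.3 normalized counts in the mock libraries and at 2.01, 3.60 and 4.81 in the clones. MSX2 passed the filter only through the mock controls, so its difference is given as a description. Of 32 germline genes known as targets of variant PRC1 or H3K9 methylation, 29 were listed, 18 passed the filter and 0 passed the test. Several were expressed in the mock controls, with mean normalized counts of 492 for TDRKH, 376 for TEX15 and 264 for DAZL, genes named after their values were seen. DAZL was at 248, 137 and 115 in the clones, below both mock controls, with an adjusted p of 0.243 in limma-trend. At an unadjusted p under 0.05 the regulators held 1 gene lower (MSX2) and 1 higher (SIX2), or 14.3%, against 15.1% of all tested genes. This share counts MSX2, which passed the filter only through the mock controls, so it is given as a description. SIX2 was at 41.5 and 49.2 normalized counts in the mock libraries and at 80.2, 90.9 and 65.4 in the clones (adjusted p = 0.165 in limma-trend). At the same limit the germline genes held 2 lower (DAZL and MAGEA4) and 0 higher (11.1%). Of the developmental regulators edgeR called 1 and DESeq2 0, and of the germline genes 0 and 0.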

How the data were processed

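Poly(A+) RNA-seq of 5 H9 libraries was analysed from 1 deposited gene table. The values are a normalized signal that the authors made by dividing each library's read counts by 1 size factor. The submitters' processing notes name HISAT2, Subread, featureCounts, DESeq2 and hg38. The annotation release and strand setting were not given in the sources used here. Deposited gene lengths (in bases) served for levels per kilobase, so rankings and shares of genes within a family depend on those lengths. The deposited columns of log2 fold changes and p-values hold the authors' own comparison and were not used, nor were the authors' group means. Gene positions overlapped the RefSeq genes of GRCh38.p14 for 40 of 40 genes.

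Every value was a whole multiple (tolerance 0.05) of what 1 read was worth, so 100% of values came out as whole reads and library totals were rebuilt. The main test was limma-trend (limma 3.58.1, R 4.3.3) on log2(normalized count + 1) of the 2 mock controls against the 3 CFIm25-m clones, on genes with at least 10 in at least 2 samples, with Benjamini-Hochberg adjustment over all 19232 tested genes and a threshold of 0.05. Fold changes are on that log2 scale and understate those of low genes. edgeR 4.0.16 (quasi-likelihood, 348 genes called) and DESeq2 1.42.0 (628 genes called) on the rebuilt reads were alternatives, as were other filters, pseudocounts, scalings, a replicate block and leaving out each library. The tests were tried on simulated data. No batch is given in the labels, and p-values measure the spread between these clones.

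The 40 genes and the 4 related lists were chosen with earlier results of these data known. Values in every sample are given for genes past the threshold, for the 12 genes with the largest absolute log2 fold changes, and for EZH1, EZH2, RING1, RNF2, TRIM28, SETDB1, EHMT1, EHMT2, SUV39H1, SUV39H2, CBX1, CBX3, CBX5, MPHOSPH8 and MORC2, plus NUDT21 and called genes of the related lists. BCOR, MSX2, SIX2, FOXD3, TDRKH, TEX15, DAZL and MAGEA4 were added after their values were seen. Genes were matched by symbol, and TASOR, TASOR2 and EZHIP by ID. A related Polycomb gene is not reported here.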

Additional observations from a re-analysis of the deposited data

How the results depend on the processing

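With 2 and 3 clones a group, the number of calls was the least stable result. Leaving out 1 library at a time gave 33 to 524 genes lower and 31 to 520 higher over the whole table, and 0 to 3 lower and 0 to 1 higher among the 40 silencing genes. It gave 0 to 1 lower and 0 to 4 higher among the other Polycomb genes, 0 to 2 lower among the other H3K9 genes, and 0 to 1 in each direction among the developmental regulators. The highest counts came without CFIm25-m replicate 3, and the cause was not tested. DESeq2 called 279 genes lower and 349 higher, and without a mean-variance trend limma called 25 and 21. Among the 40 genes, edgeR and DESeq2 each called 1 higher, and the fit without the trend called 0 lower, with an adjusted p of 0.167 for JARID2. Other Polycomb genes called higher numbered 3 in DESeq2, 0 without a filter and 0 without the trend, and other H3K9 genes called lower 0 without the trend. Developmental regulators called lower numbered 1 in edgeR, 1 with a value of 10 in every sample of a group and 1 with a pseudocount of 5. In edgeR this was MSX2, which passed the filter only through the mock controls and whose adjusted p in DESeq2 was not given. The gene called in the other settings was not identified here, so these counts of developmental regulators are given as a description only. The cause of these shifts was not tested. JARID2 kept its sign in all 14 alternatives and its call in 9, and CBX6 passed in 4.

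Estimates near 0 changed sign. The log2 fold change of RING1 was 0.0127 in edgeR, 0.0033 in DESeq2 and 0.0096 with TMM scaling, and that of PCGF6 was 0.0184, 0.0093 and 0.0125. Leaving out 1 library at a time gave -0.0762 to 0.0662 for RING1, -0.0453 to 0.0441 for PCGF6, -0.0608 to 0.0946 for PHF1, -0.0681 to 0.0090 for PCGF3, -0.0064 to 0.1103 for CBX2, -0.0174 to 0.2475 for CBX7, -0.1405 to 0.0376 for BCOR and -0.1351 to 0.0323 for CBX5.

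No label pairs the same-numbered clones. The deviations of replicate 1 from the group means correlated at 0.0072 between the groups and those of replicate 2 at 0.018. With 2 mock controls their deviations mirror each other. These values therefore cannot decide whether same-numbered clones were prepared together, which was not tested. A replicate block, in which CFIm25-m replicate 3 has its own term and adds nothing to the contrast, gave 1064 genes lower and 1043 higher. Under the block 3 of the 40 genes were called lower and 2 higher (ATF7IP, JARID2 and KDM2B, and CBX6 and PCGF5), 2 and 4 of the other Polycomb genes, 5 lower of the other H3K9 genes, 1 and 2 of the developmental regulators and 2 lower of the germline genes. PHF1 (-0.0608), RING1 (0.0361), PCGF6 (0.0441) and CBX5 (0.0323) changed sign under the block.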
